A study of Mus musculus with 32 samples.

Results

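Chromatin accessibility was described at 8 mouse genes of the red cell lineage: Klf1, Nfe2, Gfi1b, Epor, Tfrc, Alas2, Slc4a1 and Trim10. A region of the deposited count tables belonged to a gene when its midpoint lay inside the gene's mm10 span, or within 50 kb of it and nearer to it than to any other of 19937 named protein-coding genes. This gave 23 of the 99037 regions of the developmental table, for 7 of the 8 genes, and 34 of the 147852 regions of the table of cultured cells, for all 8. The genes were chosen by name and role, not by a threshold on these counts, but with earlier results of these data known.

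Red cells arise from haematopoietic stem cells through progenitors that gradually restrict their fate. GATA1, KLF1, NF-E2 and GFI1B are transcription factors that open or close regulatory DNA on that path, erythropoietin acts through its receptor EPOR to keep erythroid progenitors alive, and iron taken up through TFRC is built into haem by a pathway whose first erythroid step is ALAS2. Stem and early progenitor cells often carry accessible chromatin at lineage genes before those genes are strongly expressed. ATAC-seq measures accessibility with the Tn5 transposase, which inserts sequencing adapters where DNA is not wrapped in nucleosomes.

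All libraries came from LSK cells (lineage-negative, Sca-1-positive, Kit-positive cells, the compartment holding the stem cells) of C57BL/6 mice. The developmental samples were PL and FL at E12.5, FL at E16.5, BM around birth (Perinatal BM), and BM at 1, 3, 4, 6 and 8 weeks (1w to 8w), with 3 libraries each and 2 at 3w. FL commonly stands for fetal liver and BM for bone marrow, while PL is not spelled out in the labels. E12.5 FL cells were also kept for 2 hours in basic medium (SHI) or in medium that hepatocytes of E16.5 had conditioned (co-SHI), with 3 libraries each. Library 8w BM 3 is titled as 8-week marrow but carries the stage label E12.5, and it was kept in the group of its title. Nothing in the labels tells whether the libraries within a group derive from different animals. The p-values therefore measure the spread between these libraries, which may be technical.

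Totals in the regions ran from 2845113 to 10167340 counts per developmental library and from 7512258 to 20092146 per cultured library. Levels are given as CPM (a region's counts relative to the library's scaled total) after TMM scaling, per region or summed over a gene's regions. Genes and regions were scaled on their own counts, so that region CPM do not add up exactly to the gene's CPM. Levels of different genes depend on how many regions each has and are not compared. In bulk ATAC-seq, fewer cells with an open site and less opening per cell cannot be told apart.

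The labels of the cultured libraries went against each other. Across 76452 regions, each of the 6 cultured peak lists varied most closely with a count column named for the other group. The closest pairs had Pearson r of 0.4 to 0.63, whereas each list and the column of its own label had r of -0.24 to -0.08. The 6 lists paired with 6 different columns. In the developmental table each of 26 peak lists was closest to its own column, with r of 0.32 to 0.81. These correlations are over regions, are descriptions and carry no test. Groups below therefore follow the names of the count columns, and every direction between SHI and co-SHI turns over if the labels of the peak lists are the right ones. The files do not show which of the 2 labels is right.

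**Figure D1:**
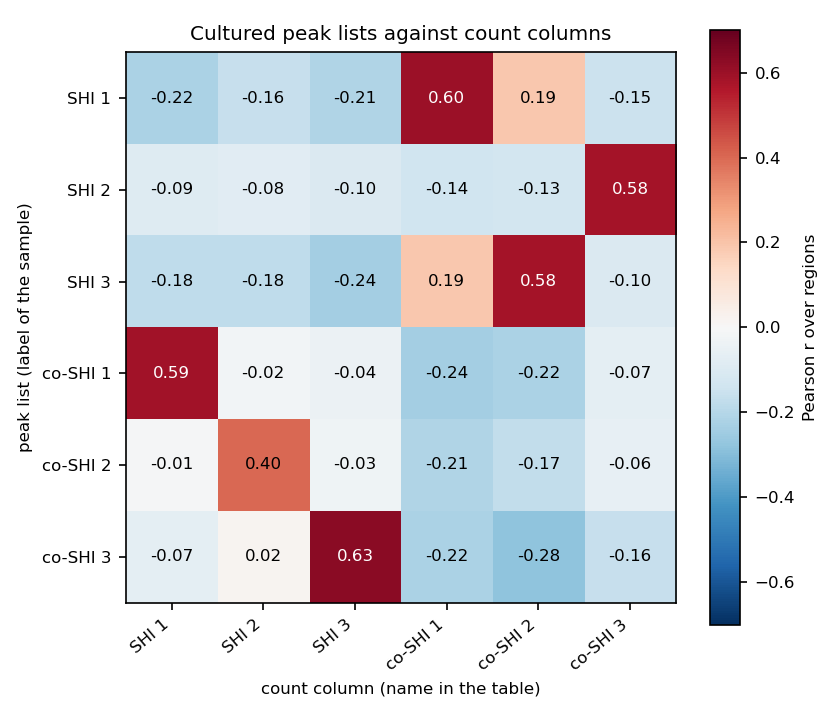
Pearson r over 76452 regions between each cultured peak list (rows, by the label of the sample) and each count column (columns, by its name), both as deviations from their mean over the 6 libraries. The highest r of each row, 0.40 to 0.63, lies in the columns of the other group.

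The starts of 3 genes whose regions differed in one of the comparisons are shown for context, as 250 bases before the annotated start (RefSeq, GRCm38.p6), 5′ to 3′ on the gene's strand. Capitals mark GATA letters (NGATAN with A or T first and A or G last), CACCC letters (CCNCNCCC, the kind of box that KLF factors bind) and NF-E2 letters (TGANTCA), each searched on both strands. Adjacent CACCC matches overlap and run together. The Gfi1b stretch lies at chr2:28621983-28622232 on the minus strand, with 184 of its bases inside Gfi1b region 6. The Trim10 stretch, shown for the 172 bases before the gene's annotated span, lies at chr17:36869324-36869495 on the plus strand, wholly inside Trim10 region 1. The Tfrc stretch lies at chr16:32608646-32608895 on the plus strand, wholly inside Tfrc region 4.
Gfi1b: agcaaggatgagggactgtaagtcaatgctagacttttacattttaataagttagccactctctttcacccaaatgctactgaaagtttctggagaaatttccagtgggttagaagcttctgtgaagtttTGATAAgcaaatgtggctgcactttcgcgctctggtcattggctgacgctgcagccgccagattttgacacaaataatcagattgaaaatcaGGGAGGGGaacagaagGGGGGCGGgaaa
Trim10: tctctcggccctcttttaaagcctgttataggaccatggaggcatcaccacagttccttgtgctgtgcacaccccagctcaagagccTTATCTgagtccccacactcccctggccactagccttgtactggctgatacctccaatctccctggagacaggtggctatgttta
Tfrc: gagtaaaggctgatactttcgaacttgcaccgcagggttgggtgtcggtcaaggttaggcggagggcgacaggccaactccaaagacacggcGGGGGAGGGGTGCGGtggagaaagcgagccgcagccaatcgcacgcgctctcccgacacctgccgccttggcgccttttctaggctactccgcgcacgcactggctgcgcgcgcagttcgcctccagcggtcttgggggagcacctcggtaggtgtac

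Of the 8 genes, 6 had an entry in the promoter table, and Tfrc had 2 starts. GATA letters stood at -80 in Klf1, -86 in Alas2, -163 in Trim10, -54 in Epor and -120 in Gfi1b (first base of the match, counted from the start), and in neither Tfrc stretch. Of all 32851 promoter stretches of this length, 26.5% held GATA letters. CACCC letters were in the Alas2, Epor, Tfrc and Gfi1b stretches and in 45.9% of all stretches. NF-E2 letters were in the Trim10 stretch alone, at -56 in bases not printed here, and in 6.7% of all stretches. A match is a description of letters and not a bound site.

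The 2 sources at E12.5, FL and PL, were compared first, to ask how LSK cells of 1 age differ between them. Nfe2 and Gfi1b were more accessible in E12.5 FL, by 2.66-fold and 2.28-fold, and Trim10 was higher by 2.86-fold with few counts behind it. Klf1, Epor, Tfrc and Slc4a1 did not pass the test as genes. These 3 of 7 tested genes were called at an adjusted p under 0.05 (edgeR quasi-likelihood test, Benjamini-Hochberg over 16550 genes), against 49.3% of all genes tested (26.8% called higher). The share among the members was thus near the background. The median log2 change was 0.17 over the 7 genes and 0.004 over all genes.

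Nfe2 encodes the subunit of the NF-E2 factor that is restricted to blood cells, a factor of erythroid cells and megakaryocytes. It lies at chr15:103248212-103258403 and had 5 regions. Its summed level was 41.3, 42.2 and 45 CPM in the E12.5 PL libraries and 121, 93.9 and 128 CPM in the E12.5 FL libraries. Every FL library was above every PL library. Libraries did not overlap for 4 of the 7 genes and for 51.3% of all genes tested. The log2 change was 1.41 ± 0.14 (SE, edgeR adjusted p = 8.1e-11).

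Gfi1b encodes a zinc-finger repressor needed for erythroid and megakaryocytic development. It lies at chr2:28609450-28621982 on the minus strand and had 7 regions. Its level was 23.7, 37.5 and 30.7 CPM in E12.5 PL and 75.3, 60.1 and 75.1 CPM in E12.5 FL, without overlap. The log2 change was 1.19 ± 0.16 (SE, edgeR adjusted p = 6e-08). The calls of Nfe2 and Gfi1b held under every alternative processing and without each library of the 2 groups in turn.

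Trim10 encodes a RING-finger protein linked to erythroid maturation, and its single region covers the start of its span (chr17:36869496-36877833). It had 8, 7 and 4 counts in the PL libraries (1.9, 1.5 and 0.943 CPM) and 15, 17 and 12 counts in the FL libraries (4.06, 4.96 and 3.55 CPM). The log2 change was 1.51 ± 0.61 (SE, edgeR adjusted p = 0.036). That call ended without FL 1, FL 2, PL 2 or PL 3, with loess offsets (1.08) and with the scaling of the regions (1.22). The same region taken alone had a log2 change of 1.21 and an adjusted p of 0.096.

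The remaining genes stayed closer together. Klf1, an activator of globin and many other erythroid genes, averaged 30.5 ± 6.4 CPM in E12.5 PL and 26.7 ± 2.0 in E12.5 FL (SD, n = 3 each), with a log2 change between -0.57 and 0.19 (95% interval). Epor averaged 23.5 ± 1.7 and 26.6 ± 7.6 CPM, with an interval of -0.21 to 0.56. Tfrc, the transferrin receptor, averaged 54.7 ± 9.8 and 56.3 ± 11 CPM, with an interval of -0.26 to 0.34. Slc4a1, the anion exchanger band 3 of the red cell membrane, was at 10.7, 10.7 and 10.8 CPM in PL and 6.77, 6.42 and 10.4 in FL. Its FL libraries were all lower, but the adjusted p was 0.26 (edgeR, log2 change -0.46 ± 0.33, SE). It passed with loess offsets (-1.01, adjusted p = 0.0083) and with the scaling of the regions (-0.75, adjusted p = 0.043), and under that scaling Klf1 also passed as lower (-0.49, adjusted p = 0.028).

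**Figure D2:**
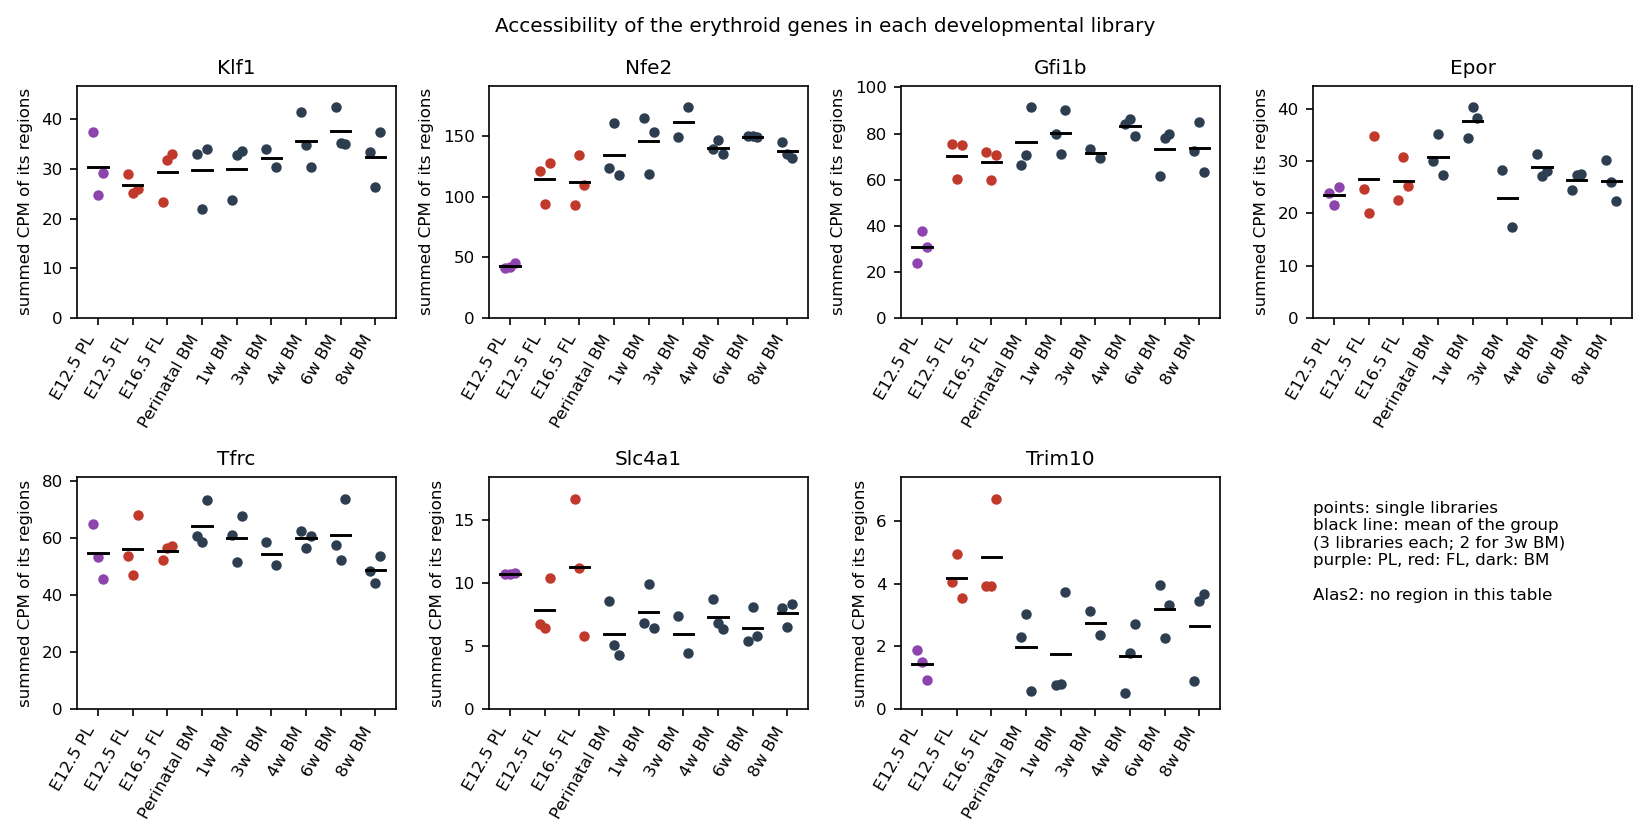
Summed CPM of the regions of each gene (vertical axis from 0) in every developmental library, by group along the horizontal axis, with points for libraries and a line for the mean of the group. For Nfe2 the 3 PL libraries sit at 41.3 to 45 CPM and every other library at 92.8 or above, and for Gfi1b at 23.7 to 37.5 against 60 or above.

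Single regions showed which parts of the genes carried these differences. Of the 23 regions, 13 were called in FL against PL, 10 higher and 3 lower, against 49.4% of 98996 regions tested (23.1% higher and 26.3% lower). Of these, 4 of the 5 Nfe2 regions and 5 of the 7 Gfi1b regions were higher. The median log2 change was 0.9 over the 23 regions and 0.092 over all regions. Regions are numbered along the chromosome within each gene.

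Nfe2 region 4 (chr15:103258216-103258790), at the higher-coordinate end of the span, was the strongest of the Nfe2 regions. The strand of Nfe2 was not used, so that end is called neither start nor 3′ end. Region 4 held 59.7% of the gene's region CPM in E12.5 FL. It rose from 21.9, 32 and 26.6 CPM in PL to 57.5, 47.1 and 64.2 in FL (log2 1.07 ± 0.19, SE, edgeR adjusted p = 9.7e-06). Every library of the developmental series, 26 of 26, had a deposited peak there. Nfe2 region 3 (chr15:103255094-103255720), inside the gene, rose from 9.86, 5.63 and 9.72 CPM to 20.8, 14 and 24.7 (log2 1.24 ± 0.25, adjusted p = 7.6e-05). In both regions the FL libraries lay above the PL libraries. Region 5, 1849 bases beyond the same end, was at 2.89, 1.35 and 3.7 CPM in PL and 5.21, 3.51 and 3.21 in FL and was not called (adjusted p = 0.2). Region 2 (chr15:103252620-103253120), inside the gene, was weak in both sources, at 1.2, 1.8 and 0.925 CPM in PL and 6.34, 3.75 and 3.95 in FL, and its libraries did not overlap (log2 1.82 ± 0.5, adjusted p = 0.0025). Region 1 was called too (1.15 ± 0.35, adjusted p = 0.0059), but not with loess offsets (0.65, adjusted p = 0.16).

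At Gfi1b the 5 regions called higher lay at or just before the start of the gene and beyond its other end. Region 6 (chr2:28621633-28622166), over the start and part of the stretch printed above, went from 2.16, 7.2 and 3.93 CPM in PL to 10.4, 8.66 and 12.8 in FL (log2 1.25 ± 0.31, SE, edgeR adjusted p = 0.0009). Region 1 (chr2:28598018-28598651) and region 2 (chr2:28599098-28599702), 11116 and 10050 bases past the 3′ end of the gene, rose by log2 1.31 ± 0.27 and 1.27 ± 0.27 (adjusted p of 9.7e-05 and 0.00014). Region 1 was at 5.53, 6.53 and 4.63 CPM in PL and 16.8, 8.43 and 16.3 in FL, and region 2 at 5.77, 7.43 and 5.78 in PL and between 12.2 and 17.3 in FL. These log2 changes lay within 1 SE of that at the start of the gene. Region 7 (chr2:28622234-28622968), just before the start, was at 1.92, 2.48 and 4.4 CPM in PL and 9.06, 7.73 and 7.16 in FL (log2 1.44 ± 0.39, adjusted p = 0.0022). With loess offsets the value was 0.94 (adjusted p = 0.058). Region 3, 3440 bases past the 3′ end, held 16 counts over the PL libraries and 40 over the FL libraries. Its call ended with DESeq2 (1.12), its size factors (1.11) and loess offsets (0.88). Without PL 2, PL 3, FL 2 or FL 3 it ended too (1.06 to 1.29). Region 4, inside the gene, was at 3.37 to 3.83 CPM in PL and 3.46 to 4.98 in FL and was not called (0.3 ± 0.44, adjusted p = 0.58).

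Gfi1b region 5 (chr2:28616846-28617346), inside the gene, differed in the other direction from its neighbours. It had 3.37, 10.8 and 7.17 CPM in PL against 2.94, 3.04 and 1.98 in FL (log2 -1.41 ± 0.49, SE, edgeR adjusted p = 0.014). It made up 22.8% of the gene's region CPM in PL and 4.6% in FL. Only 1 of 26 libraries had a peak there, and it was a PL library. The call rests in part on PL 2, without which the log2 change was -0.96 with an adjusted p of 0.16, and it also ended without FL 3 and with total counts. Region 5 was lower in 8w BM than in PL as well, at 2.44, 0.982 and 0.884 CPM (log2 -2.3 ± 0.51, adjusted p = 0.00017), a comparison that shares the PL libraries.

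Tfrc also split by region. Region 4 (chr16:32608635-32609219), over the start of the gene, was at 57.5, 48.6 and 36.3 CPM in PL and 31.5, 21.5 and 38.5 in FL (log2 -0.64 ± 0.19, SE, edgeR adjusted p = 0.0051), with overlapping libraries. Region 5 (chr16:32614029-32614558), inside the gene, was higher in FL by log2 1.34 ± 0.55 (adjusted p = 0.037). The 3 regions 10655 to 14810 bases before the gene had positive changes of 0.73 to 0.9 that did not pass. Region 4 held 85.4% of the gene's region CPM in PL and 65.6% in FL. The gene's summed level averaged 54.7 CPM in PL and 56.3 in FL, but under the separate scaling of the genes. The region values and the gene's level are thus not on the same scale. Both calls ended under several alternatives, region 4 with loess offsets (-0.26) and region 5 with DESeq2 (1.14, adjusted p = 0.1).
Regions at gene ends were lower in FL across the whole table, with a median log2 change of -0.46 over 15869 such regions, of which 45.9% were called lower and 9.62% higher. The share of counts at gene ends was 42.5% to 45.7% in the PL libraries and 35.4% to 37.6% in the E12.5 FL libraries. Klf1 region 1 (chr8:84902940-84903462), within the gene, was lower by log2 -0.49 ± 0.2 (adjusted p = 0.042) with 38, 26.1 and 28.7 CPM in PL and 24.2, 20.1 and 21.7 in FL. It lost that call with loess offsets (-0.19) and with total counts (-0.2). The call also ended without FL 2, FL 3, PL 1 or PL 3 (-0.28 to -0.52). Klf1 has no other region, and under the scaling of the genes these same counts gave the uncalled value of the gene.

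Epor and Slc4a1 had no region called between FL and PL with edgeR and TMM scaling. Epor region 2, near the start of the gene, was at 19.2, 16.2 and 16.4 CPM in PL and 16.8, 14 and 22 in FL (log2 0.02 ± 0.23, SE, edgeR adjusted p = 0.94). Epor region 1 (chr9:21961391-21961891), inside the gene, was at 5.05, 6.53 and 8.1 CPM in PL and 3.85, 2.11 and 7.16 in FL (-0.59 ± 0.38, adjusted p = 0.18). It was called lower with loess offsets (-1.09, adjusted p = 0.022) and without FL 3 (-1.13, adjusted p = 0.033). Neither Epor region separated the libraries of the 2 sources. The 2 Slc4a1 regions lie outside the gene, 10042 and 10691 bases from its ends. Slc4a1 region 2 (chr11:102375722-102376222) was at 7.94, 6.08 and 5.32 CPM in PL and 1.81, 3.28 and 4.69 in FL, lower in every FL library (-0.98 ± 0.48, adjusted p = 0.082). It was called lower with DESeq2 (-1.21, adjusted p = 0.035), with DESeq2 size factors (-1.2, adjusted p = 0.034) and with loess offsets (-1.42, adjusted p = 0.017). Slc4a1 region 1 (chr11:102338512-102339044) was at 2.89, 5.18 and 5.32 CPM in PL and 3.85, 1.87 and 3.95 in FL (-0.47 ± 0.45, adjusted p = 0.38).

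**Figure D3:**
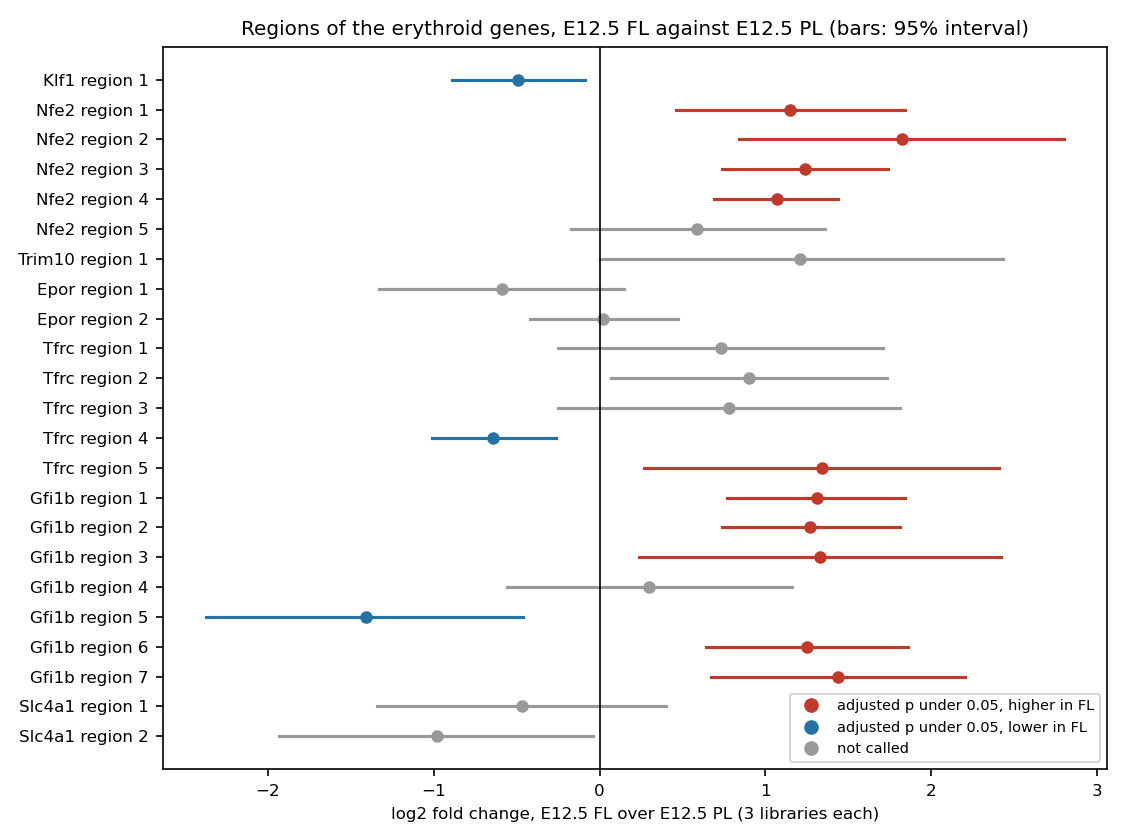
Log2 fold change of each of the 23 regions in E12.5 FL over E12.5 PL (horizontal axis), with 95% intervals as bars and colour for calls at an adjusted p under 0.05. Regions of Nfe2 and Gfi1b lie mostly to the right of 0, with Gfi1b region 5 at -1.41, and Tfrc region 4 (-0.64) and Klf1 region 1 (-0.49) lie to the left.

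Other genes of the same pathways moved both ways, and their counts stand beside 49.3% of all genes called in this comparison, 4432 of 16550 higher and 3731 lower. Of 19 erythroid transcription factors and cofactors, 7 were higher in E12.5 FL and 4 lower, led by Bcl11a, a repressor of fetal globin (log2 1.33), Runx1, a regulator of stem cell emergence (1.07), Lmo2, a bridging cofactor (1.1), and Mafk, a partner of NFE2 (-0.77). Of 15 genes of haem synthesis and breakdown, 2 were higher and 5 lower, including Hmox1, which degrades haem (-1.18), Alad, the second enzyme of haem synthesis (-1.03), Abcb10, a mitochondrial transporter (-1.06), and Fech, which inserts iron (-0.7). Of 17 red cell membrane genes, 8 were higher and 3 lower, including Rhag, a subunit of the Rh complex (1.08). Of 10 genes of iron handling, 1 was higher and 1 lower, and of 11 tested genes of erythropoietin signalling 3 were higher and 5 lower. Among 7 globin genes, 2 had a region and both were higher, Hbb-bt (1.96) and Hbb-y (1.27). The median log2 change was 0.04 for the factors, -0.1 for haem, -0.19 for iron, 0.37 for the membrane and -0.2 for erythropoietin signalling, beside 0.004 for all genes.

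Marker genes of other cells moved with the same comparison, and the same counts over all genes are the background of their counts. Of 7 tested endothelial and trophoblast markers 6 were lower in FL, with a summed level of 666 to 829 CPM in PL and 425 to 472 in FL, and Prl3d1 and Tpbpa had no region. Neutrophil and macrophage markers were higher (8 of 11, 153 to 191 CPM in PL and 423 to 428 in FL), as were megakaryocyte markers (5 of 9, 339 to 449 and 574 to 644). Hepatocyte markers were at 72.9 to 112 CPM in PL and 99.4 to 154 in FL, with 4 of 6 higher and 1 lower. Of the genes that define LSK cells, Kit was lower in FL (log2 -0.7) and Ly6a, which encodes Sca-1, had a log2 change of -1.05 and was not called. Of 9 lymphoid markers 4 were higher, of 6 tested mast cell and basophil markers 4, and of 11 stem and progenitor genes 5 were higher and 2 lower. The part of these cell types in the differences at Nfe2 and Gfi1b was not tested.

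Later development was followed by comparing stages in order of age, from E12.5 FL over E16.5 FL, Perinatal BM, 1w and 4w to 8w BM. The 3w and 6w groups were in the fit but in no pairwise comparison. None of the 7 genes was called from E12.5 to E16.5 FL, where edgeR called 0.0% of 16550 genes and none of the 7 had an unadjusted p under 0.05. DESeq2 called none of the 7 either. From E16.5 FL to Perinatal BM, where 16.3% of all genes were called, 0 of the 7 were called with edgeR and with DESeq2, and 3 had an unadjusted p under 0.05. Those were Slc4a1 (log2 -0.93 ± 0.35, SE, adjusted p = 0.061), Trim10 (-1.24 ± 0.58, adjusted p = 0.14) and Nfe2 (0.27 ± 0.13, adjusted p = 0.15). Slc4a1 passed without E16.5 FL 3 or without Perinatal BM 1, at -1.24 each time. Nfe2 passed without E16.5 FL 2 (0.41, adjusted p = 0.047) and with the scaling of the regions (0.43, adjusted p = 0.026).
After birth, 0 of the 7 were called from Perinatal to 1w, from 1w to 4w, from 4w to 8w or from 1w to 8w, with edgeR or DESeq2. The background there was 0.242%, 0.659%, 0.0% and 1.38% of genes. The numbers with an unadjusted p under 0.05 were 0, 1, 0 and 2. For the developmental comparisons no share of all genes at an unadjusted p is given. Counts by unadjusted p thus have no background and are not read as a result. From E12.5 FL to 8w BM, where 29.8% of all genes were called, 0 of the 7 were called and 1, Nfe2 (0.27 ± 0.13, adjusted p = 0.11), had an unadjusted p under 0.05.

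The 9 group means of each gene were put in order, and neighbouring groups whose libraries did not overlap were counted. No such count was made over all genes, so these counts have no background. Nfe2 ran from 42.8 CPM in E12.5 PL to 161 in 3w BM and Gfi1b from 30.6 in E12.5 PL to 83.1 in 4w BM, and in both the only neighbouring groups whose libraries did not overlap were E12.5 PL and the next, E16.5 FL. For Klf1 (26.7 to 37.6 CPM), Epor (22.9 to 37.7), Tfrc (48.9 to 64.2) and Trim10 (1.45 to 4.86), 0 of the 8 neighbouring pairs were separated. For Slc4a1 (5.93 to 11.2 CPM) E12.5 FL and E12.5 PL were separated neighbours.
Over the 9 groups together 17 of 23 regions were called, against 64.4% of all. Of the 7 genes, beside 71.6% of all genes, Nfe2, Gfi1b and Epor were called, with edgeR adjusted p of 6.6e-13, 2.2e-08 and 0.034. Epor was highest in 1w BM, at 34.4, 40.4 and 38.3 CPM, beside 22.3 to 30.2 in 8w BM. Its call ended without any one of the 1w libraries. Without the E12.5 PL libraries Nfe2 alone was called, and the adjusted p of Gfi1b was 0.37.

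Within Nfe2 the regions took different courses after E12.5, as the plot of its regions by group shows. Region 4 was at 57.5, 47.1 and 64.2 CPM in E12.5 FL and 94.3, 92.2 and 86.4 in 8w BM, without overlap (log2 0.69 ± 0.18, SE, edgeR adjusted p = 0.0042). Region 5 was at 5.21, 3.51 and 3.21 CPM in E12.5 FL and 10.6, 11 and 6.63 in 8w BM (1.24 ± 0.33, adjusted p = 0.0051). Region 1 (chr15:103250127-103250627), inside the gene, had 10.1, 13.3 and 10 CPM in E16.5 FL and 3.78, 6.24 and 5.07 in Perinatal BM (-1.12 ± 0.34, adjusted p = 0.029). Region 4 thus held 59.7% of the gene's region CPM in E12.5 FL and 71.7% in 8w BM, and region 1 held 10.1% and 4.7%. Gfi1b region 2, past the 3′ end, was between 12.2 and 17.3 CPM in E12.5 FL and at 28.3, 29.1 and 18.3 in 8w BM (0.73 ± 0.24, adjusted p = 0.025). The call of Nfe2 region 4 ended with loess offsets (0.16, adjusted p = 0.56). That of Nfe2 region 1 ended with loess offsets (-1.19) and without E16.5 FL 1, E16.5 FL 2 or each Perinatal BM library in turn (-0.96 to -1.32). The call of Gfi1b region 2 ended with loess offsets (0.45), DESeq2 (0.64), total counts (0.53) and without E12.5 FL 2, 8w BM 1 or 8w BM 2 (0.58 to 0.64).
These were 3 of 23 regions called from E12.5 FL to 8w BM, all higher, against 16.3% of all regions (10.6% higher). Nfe2 region 4 lies at a gene end, and 19.2% of regions at gene ends were called higher there. From E16.5 FL to Perinatal BM, 3 of 23 were called against 7.99% (6.63% higher and 1.37% lower). Nfe2 region 4 (0.65) and Tfrc region 4 (0.6) were higher and Nfe2 region 1 was lower. The higher ones lie at gene ends, where 15.6% of regions were called higher in this comparison. None of those 3 regions was called with loess offsets, without E16.5 FL 1 or without Perinatal BM 2. Nfe2 region 1 also lost its call without E16.5 FL 2, Perinatal BM 1 or Perinatal BM 3. Tfrc region 4 also lost its call without E16.5 FL 3, Perinatal BM 1 or Perinatal BM 3, and with DESeq2 size factors. With total counts the calls of Nfe2 region 4 and Tfrc region 4 ended too. Of the 23 regions 0 were called from E12.5 to E16.5 FL (0.00101% of all regions), and 1 had an unadjusted p under 0.05. From Perinatal to 1w, 1w to 4w, 4w to 8w and 1w to 8w BM 0 were called. The background there was 0.18%, 0.611%, 0.0273% and 1.28%, in the same order. An unadjusted p under 0.05 was found for 1, 2, 2 and 5 of the 23 regions, again without a background share.

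**Figure D4:**
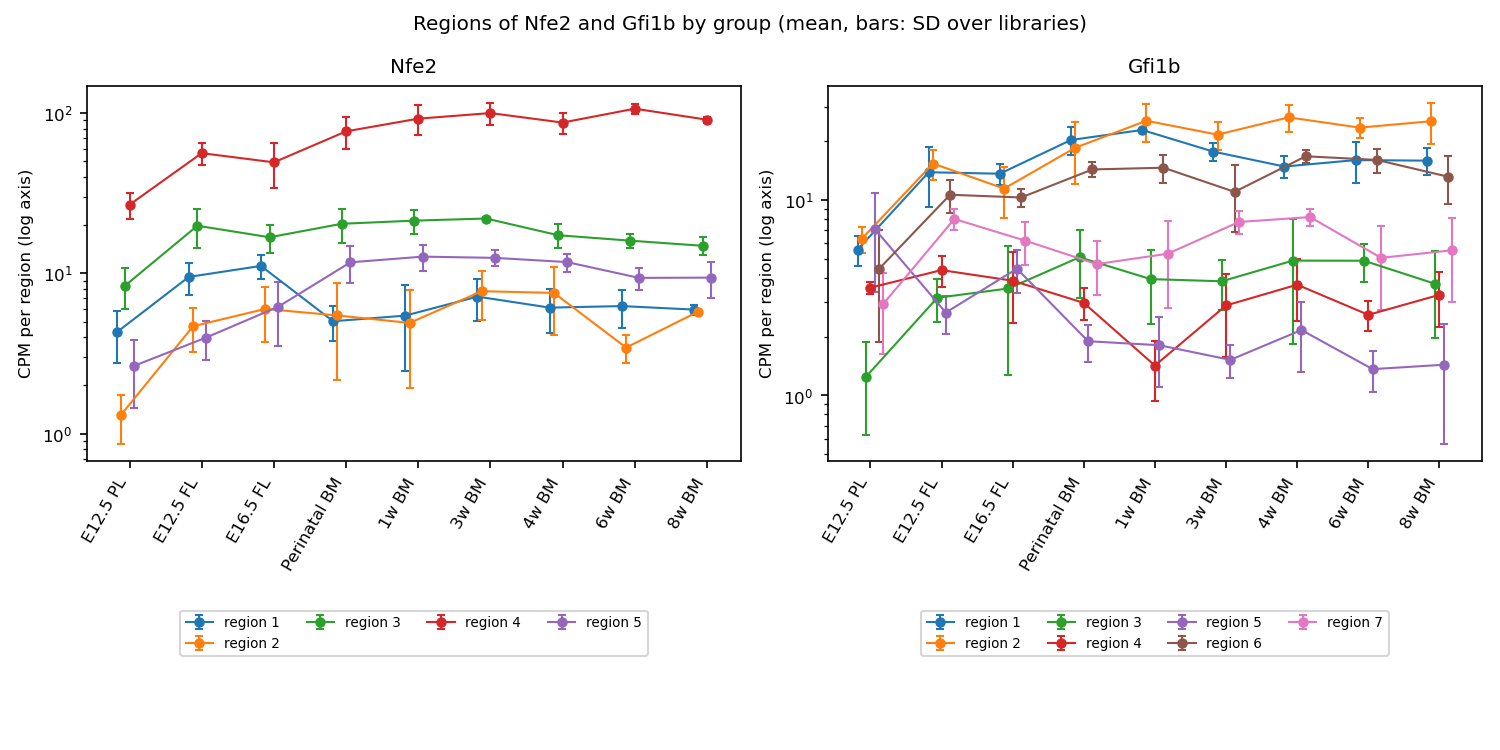
Mean CPM per region (log axis) with SD bars over the libraries of each group, for the 5 Nfe2 regions and the 7 Gfi1b regions across the 9 developmental groups. Nfe2 region 4 goes from 26.8 in E12.5 PL to 91 in 8w BM, and Gfi1b region 5 from 7.11 to 1.44.

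Of the pathway lists, beside 29.8% of all genes called (2508 of 16550 higher and 2427 lower), 6 of 15 haem genes were higher and 0 lower in 8w BM than in E12.5 FL, led by Flvcr1, a haem exporter (0.65). Of 11 erythropoietin signalling genes 4 were higher, of 10 iron genes 4 were higher and 2 lower, of 19 factors 3 were higher and 1 lower, and of 17 membrane genes 2 were higher and 1 lower.

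8w BM was also set against E12.5 PL, which shares its libraries with the comparison above. Nfe2 was higher by log2 1.68 ± 0.14 and Gfi1b by 1.26 ± 0.15 (SE, edgeR adjusted p of 2.2e-13 and 6.2e-09), 2 of 7 genes against 52.3% of all (26.6% higher). Trim10 was not called there, with 0.887, 3.44 and 3.67 CPM in 8w BM, of which 0.887 lay below every PL library. Of 23 regions 16 were called, 12 higher and 4 lower, against 54.6% of all (25.8% higher and 28.8% lower), and 10 with DESeq2. The 4 lower ones were Epor region 1 (-1.07), Tfrc region 4 (-0.76), Gfi1b region 5 (-2.3) and Slc4a1 region 2 (-1.7).

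The regions differed in how often the authors' peak lists, made library by library, had a peak over them. Peak numbers follow depth, which differed between libraries, and no share over all regions was taken. Klf1 region 1, Nfe2 region 4 and Tfrc region 4 had one in 26 of 26 libraries, Epor region 2 (chr9:21962327-21962888, near the start of the gene) in 24, Gfi1b region 6 in 20, region 2 in 18 and region 1 in 16. Nfe2 region 3 had one in 10 libraries, the 2 Slc4a1 regions in 6 and 1, and Trim10 region 1 in 1. Per kb, Nfe2 region 4 had 131 CPM over the developmental libraries, at percentile 99.5 of all regions, while Trim10 region 1 had 4.82 CPM per kb, at percentile 22. No peak of any developmental library fell within the span of Alas2 (chrX:150547417-150570622), and the developmental table has no region assigned to it.

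The genes most like each member across the 26 developmental libraries were named by Pearson r of log2 CPM among genes with at least 3 regions on other chromosomes. For Nfe2 these were Sla2, Dgkg and Flt3, each with r = 0.97, which fell to 0.86, 0.81 and 0.77 over the 23 libraries other than PL. For Gfi1b they were Ptk2b (0.95), Treml2 (0.94) and Coro2a (0.94), which fell to 0.5, 0.49 and 0.59. Nfe2 and Gfi1b had r = 0.88 with each other over 26 libraries and 0.25 over 23. The highest r was 0.73 for Klf1 (Ptma), 0.79 for Slc4a1 (Aqp7), 0.71 for Trim10 (Tdrd9), 0.7 for Epor (Mn1) and 0.62 for Tfrc (Rp9). The genes named are the top of a search over 9308 to 9742 genes per member, and such a choice by itself raises r. All points share libraries and depth, and these values are descriptions.

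The cultured E12.5 FL cells were compared to ask what 2 hours in hepatocyte-conditioned medium did. Trim10 and Alas2 were higher in the columns named co-SHI, by 3.25-fold and 2.15-fold, and 6 of the 8 genes were not called. The 2 of 8 compare with 6.94% of 17352 genes called (4.54% higher). Because the peak lists carry the opposite labels, the direction of both differences is uncertain. The columns named SHI totalled 7512258 to 11655458 counts and those named co-SHI 14280440 to 20092146, and the part of depth in these differences was not tested.

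Trim10 was at 2.2, 1.49 and 1.15 CPM in the columns named SHI and 4.23, 4.6 and 7.28 in those named co-SHI, from 10 to 23 and 71 to 93 counts, without overlap (log2 1.7 ± 0.33, SE, edgeR adjusted p = 0.0089). Its single region (chr17:36869186-36869688) overlaps Trim10 region 1 by 459 bases and was the only one of 34 called (1.71 ± 0.31, adjusted p = 0.0049), against 0.559% of 144797 regions (0.228% higher). Peaks over that region were in 3 of 3 lists labelled SHI and 0 of 3 labelled co-SHI, the opposite of the count columns. Without the column SHI 2 the gene's adjusted p was 0.052. DESeq2 gave the gene no adjusted p and did not call the region.

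Alas2 encodes the erythroid form of 5-aminolevulinate synthase, the first enzyme of haem synthesis. Its level was 2.48, 3.87 and 2.39 CPM in the columns named SHI and 4.88, 4.55 and 9.16 in those named co-SHI, without overlap (log2 1.11 ± 0.31, SE, edgeR adjusted p = 0.039). The call ended without each of the 6 libraries in turn, with log2 changes of 0.75 to 1.32. Its 2 regions (chrX:150549563-150550121 and chrX:150564604-150565104) also lie in the span of Apex2, so that the counts cannot be given to Alas2 alone. Neither region was called (log2 0.85 and 1.6, adjusted p of 0.24 and 0.099). The lists labelled SHI had a peak over the first in 3 of 3 libraries and the lists labelled co-SHI in 0 of 3.

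The other genes varied less between the cultured columns. Nfe2 averaged 136 ± 6.3 CPM in SHI and 135 ± 8.8 in co-SHI (SD, n = 3 each), with a 95% interval of the log2 change of -0.14 to 0.12. Gfi1b averaged 120 ± 7.7 and 111 ± 17, with an interval of -0.29 to 0.06. Tfrc was at 81.9, 94.7 and 84.4 CPM in SHI and 70.8, 77.3 and 73.5 in co-SHI, lower in each (log2 -0.23 ± 0.07, SE, edgeR adjusted p = 0.067). Epor was at 27.4, 27.7 and 25 CPM and at 28.9, 28.1 and 37.2 (0.23 ± 0.12, adjusted p = 0.24). Klf1 had a change of -0.22 ± 0.11 (adjusted p = 0.23) and Slc4a1 of -0.03 ± 0.2 (adjusted p = 0.95). Libraries of 4 of the 8 genes did not overlap between the columns, against 26.9% of all genes. Of the other lists, 1 of 19 factors (Tal1, 0.25), 1 of 15 haem genes (Cpox, 0.41) and 1 of 3 tested globin genes (Hbb-bs, 1.05) were higher in the columns named co-SHI. Of 11 erythropoietin signalling genes 2 were lower (Socs3 and Stat5b, both -0.26), and no gene of iron handling or the red cell membrane was called.

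Among single regions of the cultured table, 9 of 34 had an unadjusted p under 0.05, beside 18100 of all 144797. Slc4a1 region 1 (chr11:102338515-102339028), outside the gene, was at 4.4, 5.84 and 5.24 CPM in the columns named SHI and 2.25, 1.73 and 3.68 in those named co-SHI (log2 -1.04 ± 0.27, SE, edgeR adjusted p = 0.065). Region 4 of the same gene (chr11:102363548-102364072), inside it, was at 1.47, 2.25 and 1.12 CPM and at 3.08, 1.58 and 6.93, with overlap (1.27 ± 0.39, adjusted p = 0.13). The 2 Slc4a1 regions thus had log2 changes of opposite sign while the sum over the gene's 7 regions had one of -0.03. The first passed without the column co-SHI 3 (-1.37, adjusted p = 0.0067) and the second without co-SHI 2 (1.66, adjusted p = 0.027). Epor had a region over its start in this table (chr9:21963348-21963869), holding the whole promoter stretch of the gene, at 3.45, 2.92 and 2.84 CPM against 5.27, 4.49 and 6.21, without overlap (0.78 ± 0.24, adjusted p = 0.14). The strongest region of Nfe2, at the higher-coordinate end of its span (chr15:103258276-103258785), was at 96.8, 87.4 and 88 CPM in the columns named SHI. It was at 78.7, 89.7 and 101 in those named co-SHI (-0.01 ± 0.1, adjusted p = 0.97). The strongest of Tfrc, over its start (chr16:32608714-32609219), was at 50.9, 55 and 49.1 CPM and at 41.8, 47 and 48 (-0.18 ± 0.1, adjusted p = 0.5). The strongest of Gfi1b, past its 3′ end (chr2:28599199-28599860), was at 45.7, 36.2 and 43 CPM and at 32.7, 41.6 and 51.2, with a log2 change of 0 ± 0.13.

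**Figure D5:**
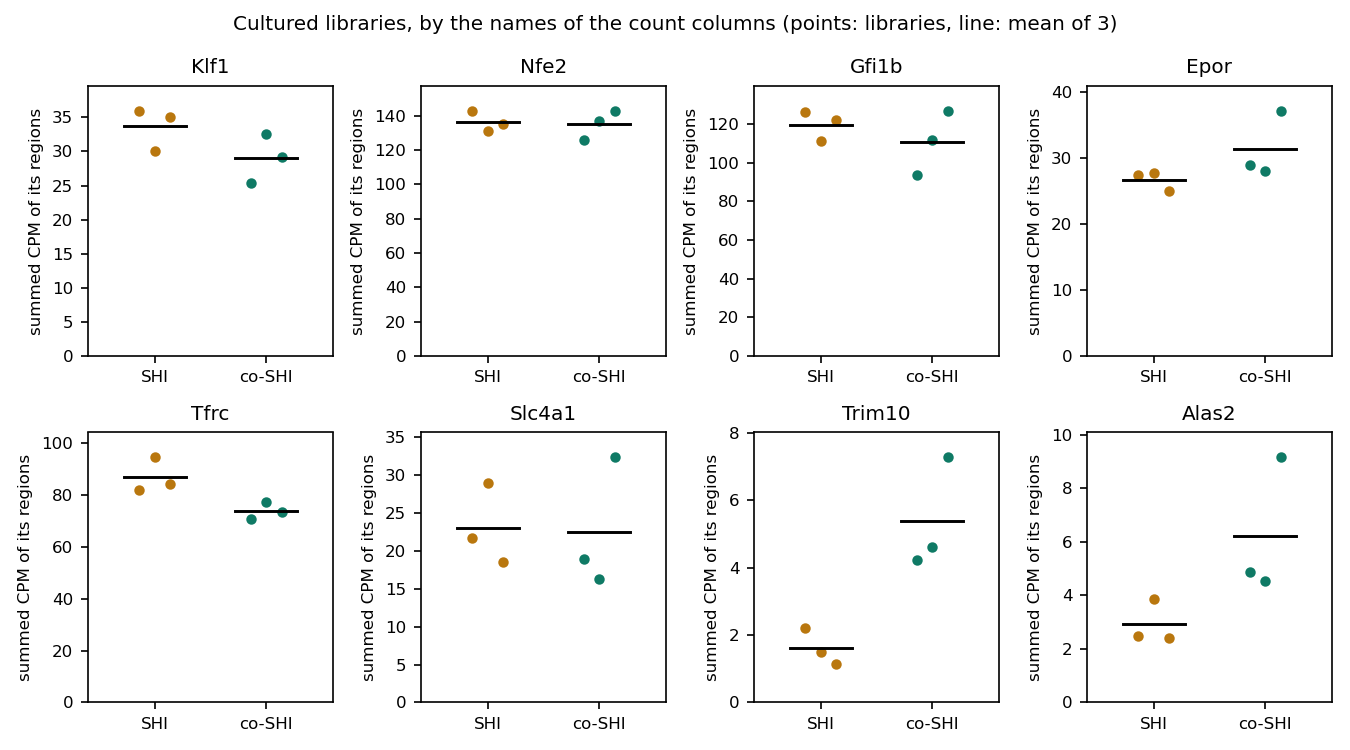
Summed CPM of the regions of each gene (vertical axis from 0) in the 6 cultured libraries, grouped by the names of the count columns, with points for libraries and a line for the mean of 3. Trim10 and Alas2 are the genes whose points lie apart and passed the test, at 1.61 against 5.37 and 2.92 against 6.2 CPM on average.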

How the data were processed

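The deposited count tables give raw read counts per region, one table for 26 developmental and one for 6 cultured libraries. Per the submitters' processing notes, the build was mm10 and the tools included MACS2 and DiffBind, besides HOMER, deepTools and Trim Galore, and the aligner and settings are not given in the sources used here. The authors' peak lists, called per library, give −log10 q for each peak. Another 3 columns of the cultured table, named E12.5 FL 1 to 3, could not be matched to those libraries and were not used, so SHI was not compared with E12.5 FL.

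Regions were assigned to genes of RefSeq GRCm38.p6 (1-based coordinates), and counts were summed per gene. A region is at a gene end when its midpoint lies within 1 kb of either end of the span. Features with too few counts were removed with filterByExpr (minimum 10), and all 23 and 34 regions passed. Groups were compared with edgeR 4.0.16 (R 4.3.3), TMM factors and quasi-likelihood tests fitted on all 26 or all 6 libraries, with Benjamini-Hochberg adjustment over the whole table and a threshold of 0.05. The gene lists and the genes described were chosen with earlier results of these data known. Named regions are, per gene, the 2 of highest mean level and the one of smallest p over the 9 groups (cultured table: highest level and smallest p), named genes of other lists are at most 4 called ones by smallest p, and other regions were named after their values were seen. The pipeline was also run on simulated counts, with far fewer changed genes than were called between FL and PL and none of low mean count. No result here rests on that run. For the label check, peak −log10 q and column CPM, both on a log2 scale, were taken as deviations from their mean over libraries, in regions with a peak in over 30% of the lists.

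Alternatives were DESeq2 1.42.0, its size factors, total counts, loess offsets, no filter, the compared groups alone, a replicate block, leaving out each library, regions at gene ends or within 10 kb only, and, chosen after seeing the data, region scaling for genes and the labels of the peak lists.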

Additional observations from a re-analysis of the deposited data

How the results depend on the processing

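The number of genes called between FL and PL at E12.5 stayed within 1.5 times the main count of 3 under every alternative run. From E16.5 FL to Perinatal BM the main count of 0 became 1 with the scaling of the regions and ranged from 0 to 1 when single libraries were left out. From E12.5 FL to 8w BM it became 1 with gene ends alone (5 genes tested) and 1 with the scaling of the regions, Nfe2 in each case. In 8w BM against E12.5 PL it was 4 with gene ends alone, beside 2. Over the 9 groups it was 1 without the E12.5 PL libraries, beside 3. Between the cultured columns it was 1 with DESeq2, where Trim10 had no adjusted p, 1 with gene ends alone, and 0 to 1 without single libraries, beside 2. Regions called from E16.5 FL to Perinatal BM, 3 in the main test, were 0 with loess offsets, 1 with total counts and 0 to 3 without single libraries. Regions called in 8w BM against E12.5 PL, 16 in the main test, were 10 with DESeq2 and 10 with loess offsets. Regions called between the cultured columns, 1 in the main test, were 0 with DESeq2 and 1 to 2 without single libraries. The cause of these shifts was not tested. Taking the cultured groups from the labels of the peak lists reverses Trim10 (-1.7), Alas2 (-1.11) and the Trim10 region (-1.71). Of the other values of single genes 1310 kept their call, 16 gained and 18 lost it, and of single regions 3454 kept, 18 gained and 117 lost it, with no change of sign among called values.

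Replicate numbers did not pair the libraries: deviations of same-numbered libraries had r of -0.08 to 0.17 over 10 comparisons, and in 0 of these was every pair over 0.1. With the replicate block the count of called genes was 3 between FL and PL at E12.5 and 2 between the cultured columns, as without it. Peaks at the 23 regions numbered 192, 179 at a −log10 q of at least 5, and 141 where at least 50% of the region had to be covered. Trim10, Slc4a1 and most distal regions rest on low counts per library, which limits what could be detected there. The planned fit with the 3 unmatched E12.5 FL columns of the cultured table, and the comparison of SHI with E12.5 FL, were not run.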
